A study of Mus musculus with 6 samples.

Results

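The Hes and Hey genes encode basic helix-loop-helix transcriptional repressors, and several of them are the best known direct targets of Notch signalling. The 9 genes examined were Hes1, Hes2, Hes3, Hes5, Hes6, Hes7, Hey1, Hey2 and Heyl, chosen by gene symbol from a table of 21937 genes, and each was listed once. The values come from ChIP-seq, in which chromatin fragments bound by an antibody are sequenced, so that a gene rich in the mark collects more reads. The samples were 6 libraries of 2 immortalized mouse lines of the metanephric kidney, taken at E11.5 from strain CD1. Each line, mK4 and mK3, gave 1 H3K4 ChIP library, 1 H3K27 ChIP library and 1 input library, which was sequenced without an antibody step. The labels name no treatment or allele, and they do not say whether either line is a clone or how it was immortalized. The study set the chromatin of the lines against each other in the context of nephron progenitor fate.

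When a Notch receptor is cut after binding its ligand, its intracellular part enters the nucleus and joins the DNA-binding protein RBPJ at target genes, where it turns RBPJ from a repressor into an activator. Hes and Hey proteins made in response repress other genes, and some repress their own, partly through Groucho co-repressors. In the forming nephron, Notch signalling is known for directing progenitors out of self-renewal and towards proximal cell fates. H3K4 methylation is in general found at active promoters, and H3K27 trimethylation marks genes silenced by Polycomb complexes. Genes with both marks are often called bivalent in stem cells.

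Each library held between 311409 and 714011 reads summed over all genes, and the input was the smallest of the 3 libraries in each line. With 1 library per group no difference has a replicate check, no test was made, and each interval below covers 95% counting error alone. The files list exon length and a read count for each gene, and whether reads outside exons were counted is not given in the sources used here. RPKM, the read count relative to exon length and library total, is the scale on which genes are compared, and its median over all genes lay between 13.0 and 14.9 in the 6 libraries. The label of the H3K4 libraries gives catalogue number ab8898, which the supplier sells as an antibody against H3 trimethylated at lysine 9, a mark of silent chromatin and of zinc finger gene clusters. Of 362 Zfp genes, the H3K4 library lay at least 2-fold over input at 10 in mK4 (2.76%) and at 17 in mK3 (4.70%). Over all genes the shares were 3.69% in mK4 and 4.94% in mK3, and which residue the antibody bound was not tested. The libraries are called H3K4 here as labelled. Of 8 nephron progenitor genes set as markers, H3K4 reached 2-fold over input at none in either line, and H3K27 reached it at none in mK4 and at Six2 in mK3. Of 6 genes of induced nephrons, H3K4 marked none in either line, and H3K27 marked 0 in mK4 and 3 in mK3 (Wnt4, Lhx1 and Fgf8). Of 4 stromal, 6 ureteric bud and 4 endothelial genes, H3K27 marked Pdgfra, Ret and Tek in mK4 and Wnt7b and Cdh5 in mK3, and H3K4 marked Foxd1, Hoxb7 and Tek in mK4 and Wnt7b in mK3. Over all genes H3K27 marked 9.06% in mK4 and 10.3% in mK3. Of 3 measured blood genes (Ptprc, Cd34 and Gata1), neither mark reached the 2-fold threshold in either line. Chromatin marks do not give transcript levels, so these values do not show which genes the lines expressed.

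H3K4 was highest at Hes1 and Hes7. Hes1, the family member with the broadest role in keeping progenitors undifferentiated, had 111.7 RPKM in mK4 H3K4 (116 reads) and 77.4 RPKM in mK3 H3K4 (67 reads). These values lay above 99.4% and 98.9% of all genes. Hes7, which drives the segmentation clock of the embryo's presomitic mesoderm, had 60.8 RPKM in mK4 (42 reads) and 59.0 RPKM in mK3 (34 reads), above 97.7% and 97.8% of all genes. Both genes were thus high in both lines, and both were also high in the inputs. The input of Hes1 was 44.4 RPKM in mK4 (25 reads) and 39.7 RPKM in mK3 (18 reads), and that of Hes7 was 37.4 RPKM in mK4 (14 reads) and 29.9 RPKM in mK3 (9 reads). Hes6, an atypical member that opposes Hes1 and favours neuronal differentiation, followed with 34.5 RPKM of H3K4 in mK4 (33 reads) and 21.3 RPKM in mK3 (17 reads). Of the other 6 members, Hey1 and Hey2 lay above the median gene in both lines and Heyl and Hes3 below it in both. The 6 ranged in mK4 between 6.17 RPKM at Heyl and 21.5 RPKM at Hey1, and in mK3 between 4.58 RPKM at Hes3 and 17.9 RPKM at Hey2.

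**Figure D1:**
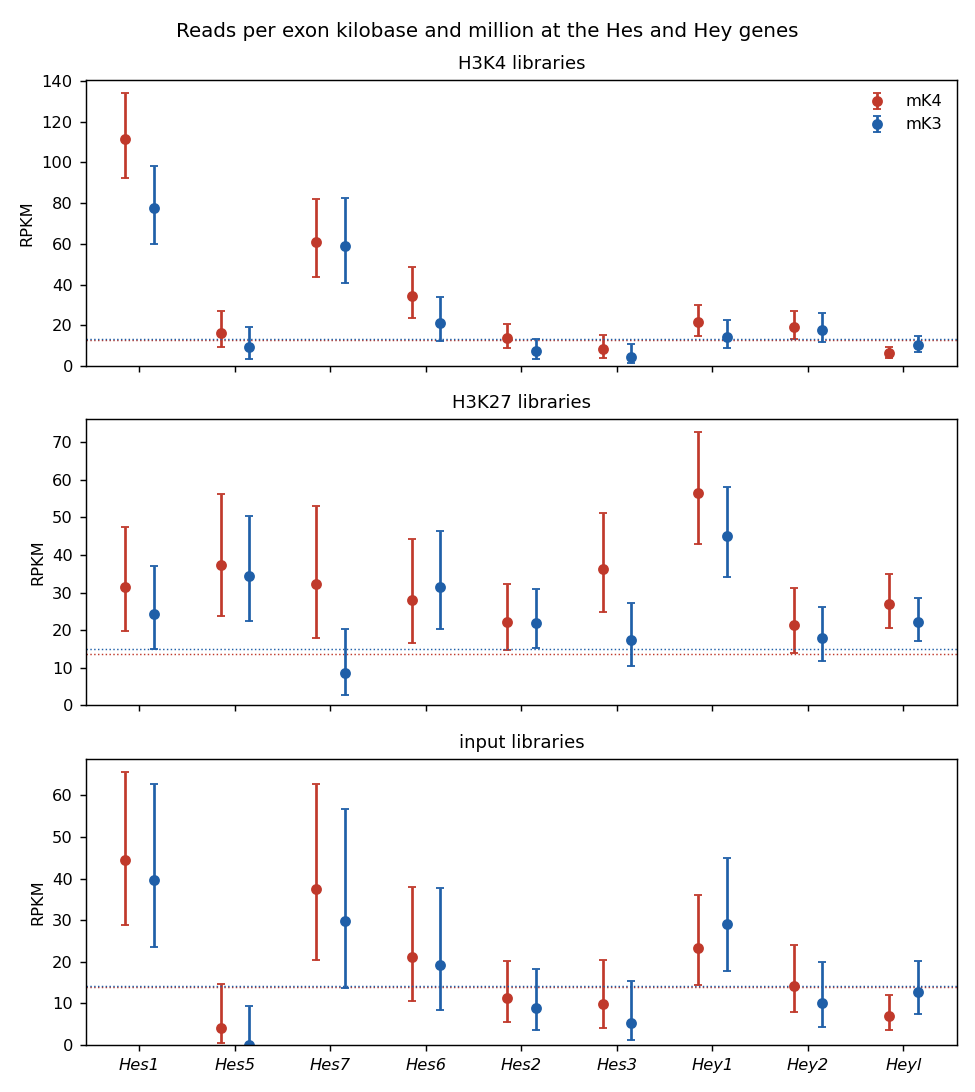
RPKM of the 9 genes in the H3K4, H3K27 and input libraries of mK4 (red) and mK3 (blue), with 95% Poisson counting intervals as bars and the median of all genes as dotted lines. Hes1 and Hes7 stand highest in H3K4 and in input, Hey1 stands highest in H3K27, and Hes5 has almost no input reads.

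H3K27 had a different order, with Hey1 at the top of both lines. Hey1, a Notch effector of vessels and heart, had 56.4 RPKM in mK4 H3K27 (60 reads) and 45.0 RPKM in mK3 H3K27 (59 reads), above 98.9% and 98.6% of all genes. Its input was also high, at 23.4 RPKM in mK4 and 29.1 RPKM in mK3, above 82.7% and 89.3% of all genes. Hes5, a Notch target of neural progenitors and of the early nephron, was second in both lines, with 37.5 RPKM in mK4 (23 reads) and 34.4 RPKM in mK3 (26 reads). Hes3, a gene of early neural progenitors, had 36.3 RPKM in mK4 (32 reads) and 17.5 RPKM in mK3 (19 reads). Heyl, the longest of the 9 with 4537 exon bases, had 27.02 RPKM in mK4 (59 reads) and 22.3 RPKM in mK3 (60 reads). Hes2 had 22.2 RPKM in mK4 (27 reads) and 22.0 RPKM in mK3 (33 reads), while Hey2, a regulator of the heart ventricle, had 21.3 RPKM in mK4 (26 reads) and 17.9 RPKM in mK3 (27 reads). In mK4 the H3K27 level of all 9 genes lay above the median of all genes, and in mK3 that of 8 of the 9 did. The exception was Hes7, with 8.71 RPKM in mK3 (5 reads) beside 32.2 RPKM in mK4 (15 reads). Many neighbours in this order did not differ beyond counting error. In mK4, Hes5, Hes3, Hes7 and Hes1 lay between 31.4 and 37.5 RPKM, and each of their 95% intervals held the values of the other genes named.

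Set against each line's own input, the members fell on different sides. A gene is called marked when its ChIP value, scaled to the mean library total with 5 reads added, was at least 2-fold its input. H3K4 marked 2 of the 9 genes in mK4, Hes1 and Hes5, beside 3.69% of all genes, and 1 of the 9 in mK3, Hes5, beside 4.94% of all genes. H3K27 marked 4 of the 9 in mK4 (Hes3, Hes5, Hey1 and Heyl), where 9.06% of all genes were marked, and 3 of the 9 in mK3 (Hes2, Hes3 and Hes5), where 10.3% were. For the 9 genes the log2 ratio of H3K27 to input had a median of 0.79 in mK4 and 0.64 in mK3, beside a median of 0 over all genes in each line. The H3K4 medians were 0.35 in mK4 and 0.11 in mK3, again beside 0 over all genes. The members had been listed with earlier results of these data in view, so the counts are a description and nothing is drawn from their distance to the background. Taking exon length instead of input as the background changed the counts: H3K27 then marked 1 of the 9 genes in each line, Hey1, beside 3.52% of all genes in mK4 and 2.39% in mK3. H3K4 then marked Hes1 and Hes7 in each line, beside 6.24% of all genes in mK4 and 5.74% in mK3.

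Without added reads, the Hes1 read share in H3K4 was 2.51-fold its input in mK4 (1.62 to 4.04) and 1.95-fold in mK3 (1.14 to 3.48). Both intervals lay above 1, so the H3K4 excess at Hes1 in mK3 was larger than counting error although it stayed under the 2-fold rule. Its H3K27 shares were 0.707 of input in mK4 (0.380 to 1.31) and 0.613 in mK3 (0.311 to 1.22). Both intervals held 1, so no H3K27 excess over input was seen at Hes1. With exon length as background, its log2 H3K27 ratio was instead 0.74 in mK4 and 0.44 in mK3, under the 2-fold rule. Hes7 had H3K4 shares of 1.62-fold input in mK4 (0.870 to 3.22) and 1.98-fold in mK3 (0.928 to 4.68), and neither interval excluded 1. Its H3K27 shares were 0.861 of input in mK4 (0.387 to 1.93) and 0.292 in mK3 (0.0768 to 0.969), and the second of these lay below input.

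Heyl, Hey1, Hes3 and Hes2 showed the reverse, with H3K27 shares above input and H3K4 shares near or below it. The H3K27 share of Heyl was 3.95-fold input in mK4 (2.10 to 8.08) and 1.75-fold in mK3 (1.02 to 3.15). That of Hey1 was 2.41-fold in mK4 (1.43 to 4.22) and 1.55-fold in mK3 (0.919 to 2.72). Hes3 had 3.67-fold in mK4 (1.59 to 9.86) and 3.33-fold in mK3 (0.979 to 17.5), resting on 7 input reads in mK4 and 3 in mK3. For Hes2 the H3K27 shares were 1.97-fold in mK4 (0.947 to 4.41) and 2.48-fold in mK3 (1.08 to 6.63), so the 2 values lay on each side of the rule with intervals that overlapped widely. In H3K4 these 4 genes lay between 0.851 and 1.23 of input in mK4 and between 0.497 and 0.872 in mK3. The lowest of these, Hey1 in mK3, had 19 H3K4 reads and 20 input reads, and its interval lay below 1 (0.251 to 0.981). Hey2 and Hes6 stood between, with H3K4 shares of 1.35-fold and 1.62-fold input in mK4 and 1.77-fold and 1.11-fold in mK3. Their H3K27 shares were 1.49-fold and 1.31-fold in mK4 and 1.77-fold and 1.64-fold in mK3, and all 8 of these intervals held 1.

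**Figure D2:**
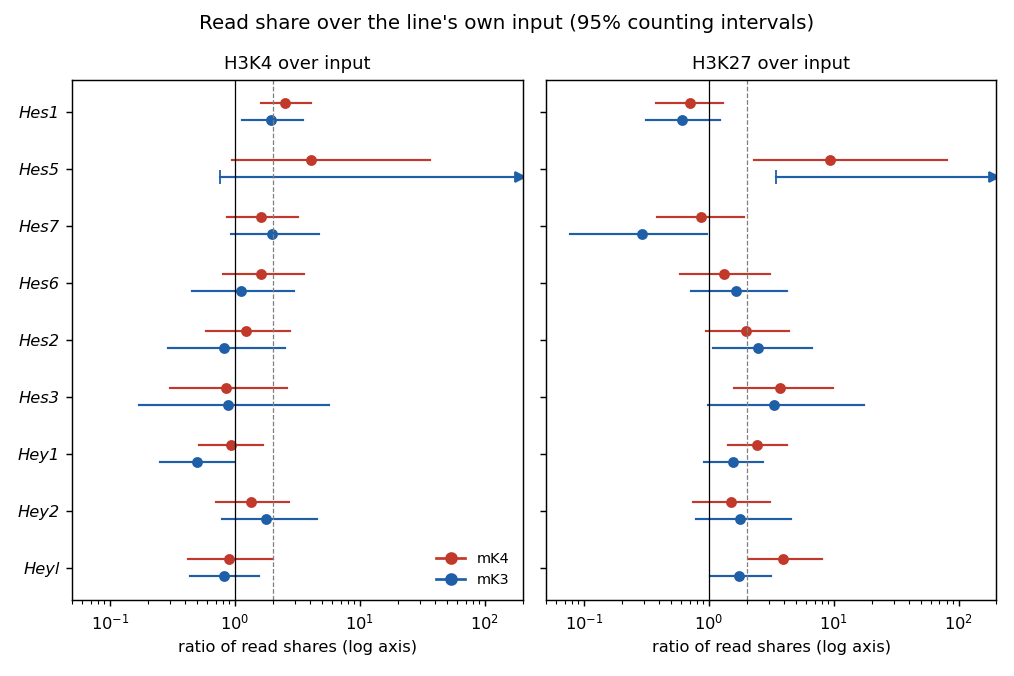
Read share of H3K4 (left) and H3K27 (right) over the line's own input at each gene, on a log axis, with mK4 in red above mK3 in blue and 95% counting intervals as bars; the dashed line is 2-fold. Arrows mark Hes5 in mK3, which has no input read and only a lower interval bound. For H3K4 the interval lies above 1 at Hes1 in both lines, and for H3K27 it lies above 1 at Hes5 and Heyl in both lines.

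Hes5 was the single member called for both marks over input, and it was so called in both lines. Both marks were found at 0.78% of all genes in mK4 (171 genes) and at 1.39% in mK3 (306 genes). Of these, 3 genes held both marks in both lines, Hes5, Krt75 and Gm806. Whether unrelated calls in the 2 lines would share as many genes was not tested, so nothing is drawn from this overlap. In mK4 its reads numbered 15 for H3K4, 23 for H3K27 and 2 for input, and in mK3 they numbered 7, 26 and 0. Its inputs were the lowest of the family, at 4.05 RPKM in mK4 (0.491 to 14.6) and 0 in mK3, where 3 reads would have been 7.55 RPKM. The H3K27 share was 9.24-fold its input in mK4 (2.28 to 80.9), and in mK3, where the input of 0 gives no fold, the interval began at 3.44. The H3K4 share was 4.06-fold in mK4, with an interval from 0.945 to 36.6 that held 1, and in mK3 the interval began at 0.754, also below 1. The H3K27 call thus exceeded counting error and the H3K4 call did not. Per exon length the H3K4 of Hes5 was 16.5 RPKM in mK4 and 9.22 RPKM in mK3, above 65.1% and 30.6% of all genes, whereas its H3K27 lay above 95.8% and 95.4%. With exon length as background Hes5 was called for neither mark in either line. When the inputs of both lines were pooled, a setting added after the data were seen, Hes5 held both marks in mK4 and H3K27 alone in mK3. In that setting H3K27 marked Hes3, Hes5 and Heyl in mK4, so that Hey1 was no longer called, beside 7.6% of all genes. In mK3 it marked Hes5 and Heyl, so that Hes2 and Hes3 were no longer called and Heyl was, beside 7.72% of all genes.

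**Figure D3:**
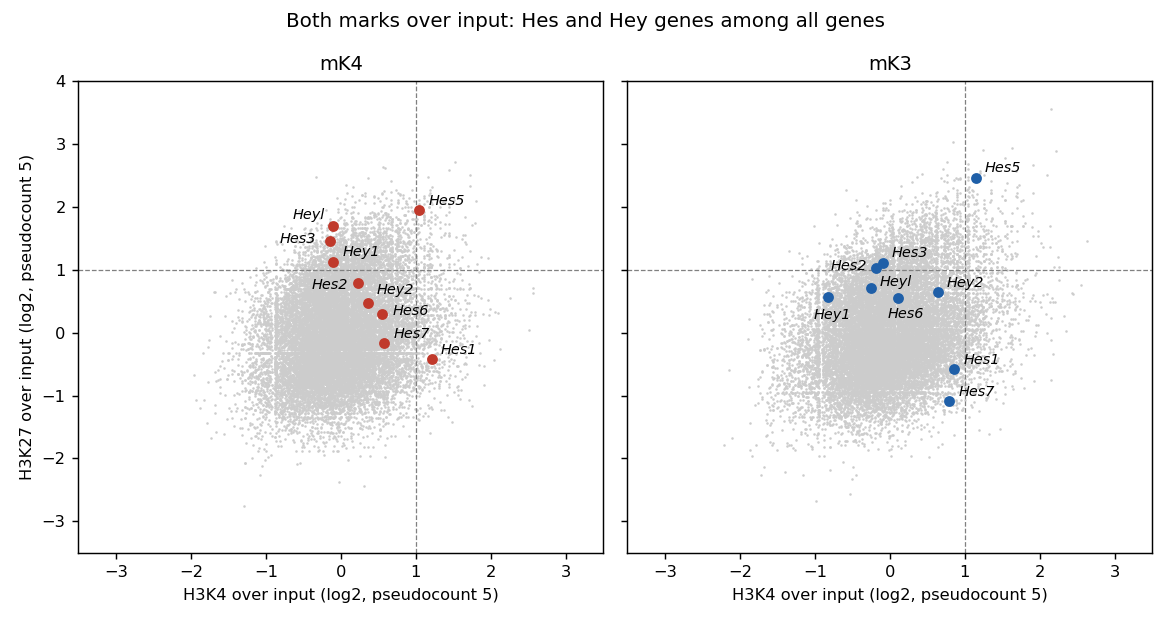
H3K4 over input against H3K27 over input in mK4 (left) and mK3 (right), on the log2 scale with 5 reads added, for all genes (grey) and the 9 members (coloured and named); dashed lines mark 2-fold. Hes5 lies in the upper right corner region, past both dashed lines, in both panels, Hes1 and Hes7 lie to the lower right, and Heyl, Hes3 and Hey1 lie to the upper left.

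The genes most like Hes5 over the 4 ratios of ChIP to input were sought by Euclidean distance on the log2 scale. The 14135 candidates had a mean scaled count of at least 10 over the 6 libraries. Clone-named genes and symbols beginning with Mir, Snor or Rn were left out, the last including protein-coding Rnf genes. The nearest was Krt75, a hair follicle keratin gene, at a distance of 0.27. It had 29 H3K4, 42 H3K27 and 5 input reads in mK4 and 27, 68 and 5 reads in mK3. Mybpc2, a myosin-binding protein gene of skeletal muscle, followed at 0.40, and Mrgprh at 0.55. All 3 had 9 or fewer input reads in each line, and the 4 ratios of a gene share 2 inputs.

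The RefSeq windows used here cover 4 of the 9 genes, Hes5, Hes6, Hes7 and Hey2, and their 250 bases before the listed start (build GRCm38.p6, whereas the counts were made on mm9) were searched on both strands for the core letters of RBPJ sites, TGGGAA. The windows of Hes5 (2 matches), Hes7 (1) and Hey2 (1) held them, and those of both Hes6 starts did not. Of the 32851 windows of this length 21.6% held at least 1 match and 2.77% held 2 or more. The matches are shown because Notch acts on its target genes through RBPJ, and whether RBPJ uses these matches was not tested. Each is written so that the core, in capitals, reads TGGGAA.
Hes5, chr4:154960831-154960856, + strand, core 82 to 77 bases before the start: ccgccgagtgTGGGAAcggccgcggc
Hes5, chr4:154960687-154960712, - strand, core 226 to 221 bases before the start: gtccgggctgTGGGAAcgcgctcgcc
Hes7, chr11:69120263-69120288, - strand, core 180 to 175 bases before the start: gccccaaatgTGGGAAgtgaggggag
Hey2, chr10:30842975-30843000, + strand, core 207 to 202 bases before the start: ggcagaggcgTGGGAAtgccaccgcg
The 250 bases of Hes5 held 32 CpG dinucleotides and those of Hey2 held 22, against 10 at Hes7 and a median of 6 over all windows. The search for the N box CACNAG, the letters bound by Hes proteins, gave 1 match at Hes7 and 1 at the second Hes6 start, none of them overlapping an RBPJ core, where 36.7% of all windows held one. A match of letters is not a bound site, and the files give no read counts for these windows.

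The order of the 2 marks within a line separated the family. The antibodies differ, so the ratio of H3K27 to H3K4 shares serves only to order genes. In mK4 the ratio was highest at Heyl (4.38, interval 2.60 to 7.67) and Hes3 (4.32, interval 2.12 to 9.49), followed by Hey1 (2.62, 1.69 to 4.11) and Hes5 (2.28, 1.14 to 4.69). It was lowest at Hes1 (0.281, 0.1698 to 0.447) and Hes7 (0.530, 0.273 to 0.975). In mK3 it was highest at Hes3 (3.81, 1.38 to 13.1) and Hes5 (3.73, 1.58 to 10.2), with Hey1 at 3.12, Hes2 at 3.01 and Heyl at 2.15, and lowest at Hes7 (0.148, 0.0451 to 0.379) and Hes1 (0.315, 0.183 to 0.520). Hes1 and Hes7 were thus the 2 lowest members in both lines, and Heyl, Hes3, Hey1, Hes5 and Hes2 were the 5 highest in both. Hes2 in mK4 had a ratio of 1.60, with an interval that held 1 (0.895 to 2.88). On the log2 scale with added reads, the H3K27 to H3K4 ratio of Hes1 lay above 1.76% of all genes in mK4 and 2.39% in mK3, and that of Hes7 above 15.9% and 0.588%. That of Heyl lay above 99.4% of genes in mK4 and 87.6% in mK3.

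Between the lines, no member passed the rule for a change, which asks for a mark in at least 1 line and a 2-fold ratio of mK4 to mK3. Of all genes 0.424% had higher and 0.392% lower H3K4 in mK4, and 0.889% had higher and 0.934% lower H3K27. Some read shares still differed by more than counting error. The intervals of every member were looked through for both marks, and the share of all genes with such an interval was not computed. Nothing is therefore drawn from how many members had one. The H3K4 share of Hes1 was 1.44-fold higher in mK4 (1.06 to 1.98), the single H3K4 interval of the family that excluded 1, while its input was 1.12-fold higher (0.586 to 2.18). For H3K27 the intervals of Hes7 and Hes3 excluded 1. Hes7 had 15 reads in mK4 and 5 in mK3, a 3.70-fold difference (1.28 to 13.0), beside inputs of 14 and 9 reads, and it was at or below input in both lines. Hes3 had 32 reads in mK4 and 19 in mK3, a 2.08-fold difference (1.14 to 3.88), beside inputs of 7 and 3 reads. With 1 added read in place of 5, Hes3 passed the rule as higher in mK4. The H3K27 shares of Hes5 (1.09-fold, 0.594 to 1.99), Hey1 (1.25-fold, 0.860 to 1.83), Heyl (1.21-fold, 0.832 to 1.77) and Hes2 (1.01-fold, 0.583 to 1.73) differed by less than counting error, and these intervals do not reach 2-fold. The H3K27 calls made in 1 line alone, Hey1 and Heyl in mK4 and Hes2 in mK3, therefore stood beside H3K27 shares that did not differ beyond counting error. At Heyl the input had 12 reads in mK4 and 18 in mK3, a ratio of 0.537 (0.236 to 1.18).

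Taken one by one, 8 of the 9 genes had an H3K4 ratio of mK4 to mK3 above 0 on the log2 scale, all but Heyl, where 45.8% of all genes did, and their median was 0.47 against -0.02 over all genes. For H3K27 it was 8 of 9, all but Hes6, beside 42.9% of all genes, with a median of 0.25 against -0.06. In the input 7 of 9 lay above 0, beside 45.9% of all genes, with a median of 0.25 against 0. Subtracting the input ratio lowered the counts, while the medians moved either way. With the chromosome's input subtracted, 7 of 9 lay above 0 for each mark, with medians of 0.58 for H3K4 and 0.36 for H3K27, beside 48.7% and 45.5% of all genes. With the summed input of the 10 neighbouring genes on each side subtracted, 6 of 9 lay above 0 for each mark, with medians of 0.37 for H3K4 and 0.44 for H3K27, beside 51.3% and 48.5% of all genes. With a member's own input subtracted it was 5 of 9 for each mark, with medians of 0.14 for H3K4 and 0.16 for H3K27, beside 48.9% and 47.1% of all genes. The 9 genes summed had 331 H3K4 reads in mK4 and 215 in mK3 (1.28-fold, 1.08 to 1.53), 282 and 275 H3K27 reads (1.26-fold, 1.07 to 1.498) and 116 and 91 input reads (1.03-fold, 0.773 to 1.37). Hes1 alone gave 116 of the H3K4 reads in mK4 and 67 in mK3. The summed intervals cover counting error alone and treat unlike genes as 1 count. Nothing is therefore drawn from them about the family as a whole.

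**Figure D4:**
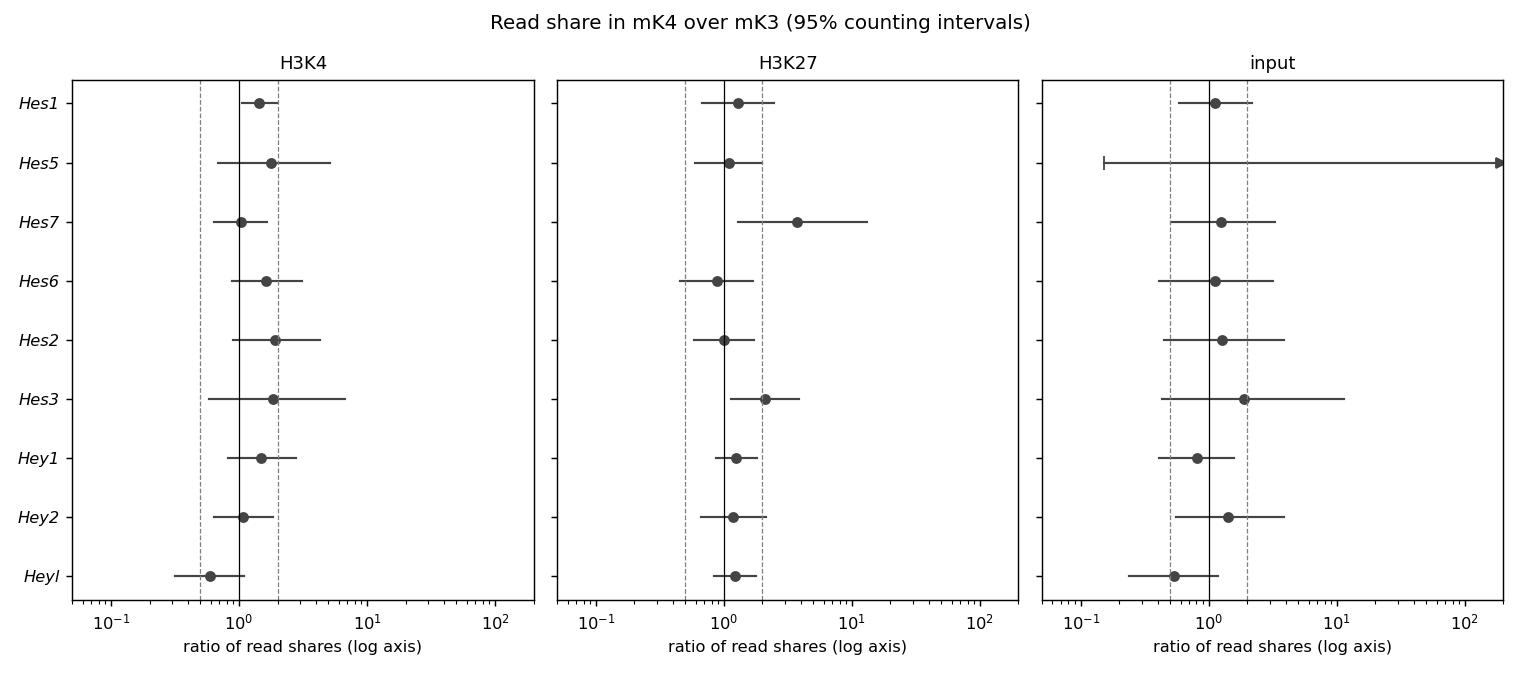
Read share in mK4 over mK3 at each gene for H3K4, H3K27 and input, on a log axis, with 95% counting intervals as bars and dashed lines at 0.5 and 2. The intervals exclude 1 at Hes1 for H3K4 and at Hes7 and Hes3 for H3K27, and at no gene for input; the arrow marks Hes5, whose mK3 input is 0.

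Input shares differed between the lines along chromosomes, and subtracting them moved the ratios of some members. Hey1 lies on chromosome 3, whose input share was 1.84-fold in mK4 relative to mK3, but the neighbours of Hey1 had a ratio of 0.995 and its own input had 20 reads in each line. Subtracting the chromosome value turned its H3K4 ratio to -0.42 and its H3K27 ratio to -0.58 on the log2 scale, from 0.46 and 0.30 uncorrected, and the neighbour value left them at 0.47 and 0.31. Around Hey2 on chromosome 10 the neighbours had an input ratio of 0.472, and subtracting it gave Hey2 ratios of 1.17 for H3K4 and 1.29 for H3K27, whereas its own input had 14 reads in mK4 and 8 in mK3. Hey2 was not marked in either line, so this did not make it a call. Around Hes5 on chromosome 4 the neighbour ratio was 1.54, and subtraction gave -0.11 for H3K4 and -0.52 for H3K27. The H3K27 ratio of Hes7 stayed above 0 under each of these corrections, between 0.92 and 1.26, and so did that of Hes3, between 0.34 and 0.98, and both H3K4 and H3K27 of Hes1. The same held for H3K4 of Hes2 (0.37 to 0.77) and Hes6 (0.42 to 0.61) and for H3K27 of Heyl (0.36 to 0.98). The H3K27 ratio of Hes6 stayed below 0 under each.

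Some members had marked neighbours. Over all genes H3K4 marked 3.69% in mK4 and 4.94% in mK3, and H3K27 marked 9.06% and 10.3%. Whether the neighbours were marked more often than other genes was not tested. Hes2, Hes3, Hes5 and Heyl all lie on chromosome 4, with 2 measured genes between Hes2 and Hes3, 24 between Hes3 and Hes5 and 460 between Heyl and Hes2. Beside Heyl, the 2 nearest genes on one side, Nt5c1a and Hpcal4, were both marked by H3K27 in both lines. Hpcal4 had 53 H3K27 and 17 input reads in mK4 and 85 and 9 reads in mK3. On the other side, Pabpc4, a poly(A)-binding protein gene, was marked by H3K4 and not by H3K27 in mK4, with 33 H3K4, 3 H3K27 and 3 input reads. Bmp8a, the next gene on that side and a bone morphogenetic protein gene, was marked by both in mK4, with 18 H3K4, 21 H3K27 and 1 input read, and by neither in mK3, with 9, 21 and 5 reads. Gpr153 next to Hes3 was marked by H3K27 in mK4, with 56 H3K27 and 17 input reads, and not in mK3, with 27 and 9. The RefSeq span of Gpr153 overlaps that of Hes3 and the strand used in counting is not given, so reads of the 2 genes may not be separable. RefSeq spans of non-coding RNA genes also overlap Hes7 and Hey2, and that of an unnamed protein-coding gene overlaps Hey1. Espn, next to Hes2, was marked by H3K27 in mK3 as Hes2 was, with 29 H3K27 and 5 input reads. The lipoxygenase genes Aloxe3 and Alox12b beside Hes7 were marked by H3K27 in mK4, with 34 and 31 H3K27 reads over 8 input reads each, while Hes7 itself was not. Vamp2, on the other side of Hes7, was marked by H3K4 in mK3, with 35 H3K4 and 6 input reads. Tnfrsf14 beside Hes5 was marked by H3K27 in mK4 (10 reads over 1 input read) and by H3K4 in mK3 (6 reads over 0 input reads). Beside Hey1, Stmn2 was marked by H3K27 in mK4 (27 reads over 7 input reads) and Mrps28 by H3K4 in mK3 (17 reads over 2 input reads). No gene among the 2 nearest on each side of Hes1, Hes6 or Hey2 was marked by either antibody in either line.

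The other Notch pathway genes were marked in shares near those of all genes for H3K27. Of 42 genes of ligands, receptors, the nuclear complex, Fringe enzymes, receptor processing and feedback, H3K27 marked 5 in mK4 and 5 in mK3, beside 9.06% and 10.3% of all genes, and H3K4 marked 1 in each, beside 3.69% and 4.94%. Over all 42 genes the log2 ratio of H3K27 to input had a median of -0.24 in mK4 and -0.05 in mK3, where the Hes and Hey genes had 0.79 and 0.64. By group the order differed: in mK3 the median of the 3 Fringe genes was 0.87 and that of the 7 ligands was 0.64. Among the ligands, H3K27 marked Dll1, Dll3 and Dlk1 in mK4 and Dll4 and Dlk1 in mK3. Dll1, a ligand of the early nephron, had 62 H3K27 reads and 17 input reads in mK4 and 75 and 19 in mK3. Dll4, a ligand of vessels, was the 1 pathway gene past the rule between the lines, with 16 H3K27 reads in mK4 and 69 in mK3. Notch4, a receptor of endothelial cells, held both marks in mK4, with 112 H3K4, 57 H3K27 and 21 input reads, and neither in mK3, with 84, 104 and 48. The input share of Notch4 was lower in mK4, with a ratio of mK4 to mK3 of 0.352 (0.2004 to 0.5998). Its H3K4 ratio was 1.11, with an interval that held 1 (0.8303 to 1.493). The H3K27 ratio was 0.675 (0.4802 to 0.9418), so the H3K27 share of Notch4 was lower in mK4, the line where it was called. Rfng, a Fringe glycosyltransferase gene, held both in mK3, with 32 H3K4, 22 H3K27 and 2 input reads, and neither in mK4, with 29, 8 and 14 reads. Its input share was 5.64-fold higher in mK4 (1.29 to 51.1). The intervals of its H3K4 ratio (0.756, 0.441 to 1.29) and H3K27 ratio (0.448, 0.173 to 1.05) of mK4 to mK3 held 1. Of the feedback genes, Dtx1 was marked by H3K27 in both lines (35 H3K27 and 9 input reads in mK4, 88 and 12 in mK3), and Nrarp, a Notch target that limits the pathway, in mK3 (73 H3K27 and 10 input reads). No gene of the nuclear RBPJ complexes (0 of 7) or of receptor processing (0 of 10) was marked by either antibody.

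**Figure D5:**
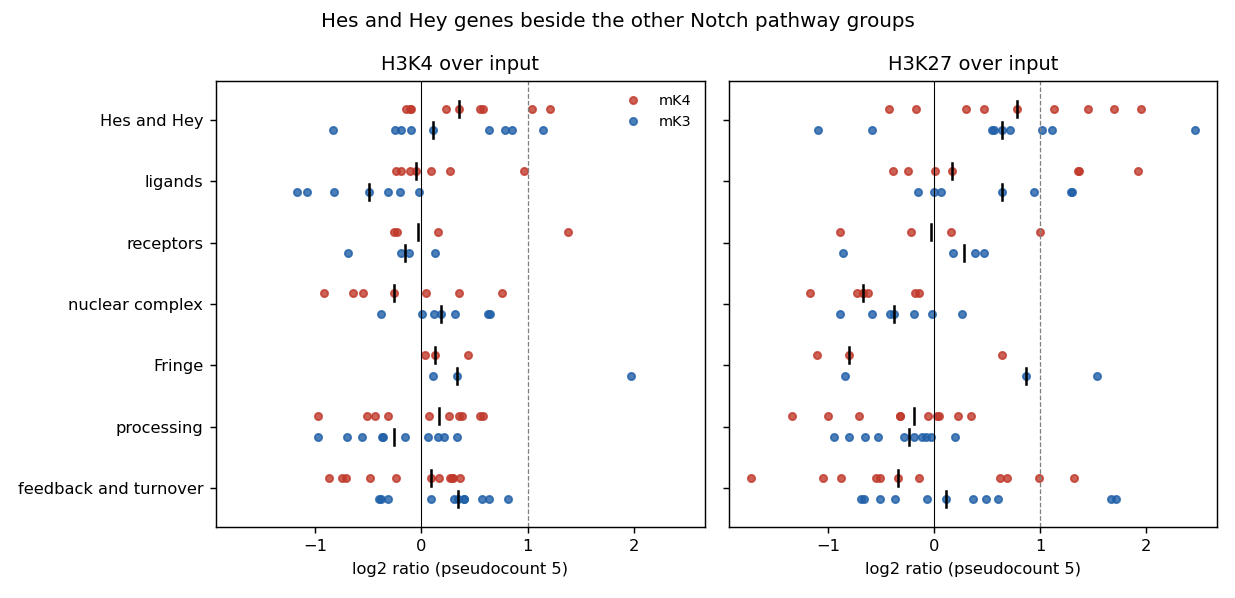
Log2 ratio of H3K4 (left) and H3K27 (right) over input for the Hes and Hey genes and 6 other groups of Notch pathway genes, with mK4 in red above mK3 in blue, 1 point per gene and the group median as a black bar; the dashed line is 2-fold. The Hes and Hey medians for H3K27 are 0.79 in mK4 and 0.64 in mK3, and in mK3 the Fringe median of 0.87 lies above them.

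Of the 3 related genes with the same protein architecture, Helt, a repressor of midbrain neurons, was marked by H3K27 in both lines, with 42 H3K27 and 12 input reads in mK4 and 77 and 8 in mK3. Bhlhe41, a clock repressor, was marked by H3K4 in mK4, with 79 H3K4 and 19 input reads, and had 52 and 21 in mK3. Bhlhe40 was marked in neither line, with 94 H3K4, 32 H3K27 and 35 input reads in mK4 and 50, 34 and 24 in mK3. Of the 5 Groucho co-repressor genes, Tle3 was marked by H3K4 in mK3 (110 H3K4 and 13 input reads, beside 133 and 42 in mK4), and none was marked by H3K27. The H3K4 share of Tle3 was 1.01-fold in mK4 relative to mK3 (0.777 to 1.31), while its input share was 2.60-fold (1.37 to 5.28). Over all genes H3K4 marked 3.69% in mK4 and 4.94% in mK3, and H3K27 marked 9.06% in mK4 and 10.3% in mK3.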

How the data were processed

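ChIP-seq and input libraries of mK4 and mK3 were grouped by their titles, 1 library per group. The authors deposited a whole-number read count for every gene, per the file headers, and their RPKM divides it by exon length and the library's summed count, a relation that held for all 22088 rows. Reads were placed on mm9, according to the submitters' processing notes. Aligner and duplicate removal: not given in the sources used here. For 137 symbols with several rows the row with the highest ChIP mean was kept. Counts were scaled to the mean library total of 513622 reads, and log2 ratios used a pseudocount of 5, which understates differences at low counts. Folds compare shares of library totals with nothing added and have exact Clopper-Pearson 95% intervals, and levels have exact Poisson intervals. PCR reads without molecular identifiers are not independent, so intervals cover counting error only. Percentiles give the share of genes with a lower value. With 1 library per group no test was run. Functions were tested on simulated Poisson counts, at genes with more expected input reads than most members had, so calls at low depth were not checked. edgeR 4.0.16 gave TMM factors for 1 alternative, and RefSeq order (GRCm38.p6) placed 19349 genes by symbol and 2305 by synonym, with 283 unmatched. The members, lists and rules were chosen with earlier results of these data known. All 9 members are named, with pathway genes that were called and the 3 genes nearest to each member with both marks.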

Additional observations from a re-analysis of the deposited data

How the results depend on the processing

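The calls rest on few reads and moved with the settings, as did the shares of all genes, given in parentheses. With a pseudocount of 10, H3K4 marked 1 of the 9 genes in mK4 (1.56%) and 0 in mK3 (1.97%), H3K27 marked 1 in mK3 (5.47%), and both marks were held by 0 in mK4 (0.0729%) and 0 in mK3 (0.264%). With a pseudocount of 1, 1 gene, Hes3, had higher H3K27 in mK4 (3.01%). With exon length as background, H3K4 marked 2 genes in mK3 (5.74%), H3K27 marked 1 in mK4 (3.52%) and 1 in mK3 (2.39%), both marks were held by 0 in mK4 (0.857%) and 0 in mK3 (0.296%), and the H3K4 ratio of Hes5 in mK3 reversed to -0.50 from 1.14. A threshold of 1.5-fold gave 4 genes with H3K4 (15.3%), 5 with H3K27 (23.0%) and 2 with both marks (6.14%) in mK3, and 1, Hes3, with higher H3K27 in mK4 (4.95%). A threshold of 3-fold gave 0 with H3K4 in mK4 (0.419%) and 0 in mK3 (0.697%), 2 with H3K27 in mK4 (1.66%) and 1 in mK3 (2.25%), and 0 with both marks in mK4 (0.0274%) and 0 in mK3 (0.137%). With the pooled input, added after the data were seen, H3K4 marked 0 in mK3 (2.72%) and both marks were held by 0 in mK3 (0.397%). Causes other than the settings' own construction were not tested. Of 60 recomputed counts of marked members, 39 stayed within 1.5 times, which does not mean the same genes. Of 52 recomputed counts between the lines, 50 were 0 as before, which says nothing about stability. Over all genes, median-of-ratios scaling gave 249 with higher and 170 with lower H3K27 in mK4, against 195 and 205. No paired analysis was possible because each group has 1 library. Depth limits Hes5 and Hes3 most, with between 0 and 7 input reads.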
